A study of Homo sapiens with 6 samples.

Results

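The genes described here are MNDA, TYROBP, ANXA1, CHI3L1 and TLR4, 5 genes of myeloid effector function among 14884 genes with a value on the array. They were chosen because their values were higher in RKIP shRNA arrays than in control arrays, so their own levels are given as a description without a test. RNA came from THP-1, a widely used monocytic cell line that was established from human leukaemia. The RKIP shRNA group consisted of 3 arrays of cells that carried a lentiviral hairpin vector (psi-LVRU6GP) against RKIP, and the control group of 3 arrays of cells that carried the empty form of the same vector. Cells of both groups were kept in 1.5 µg/mL puromycin, and 250 ng of total RNA was labelled per array. RKIP, the Raf kinase inhibitor protein, is the product of PEBP1. The comparison asks which genes differ in leukaemia cells that carry a hairpin against RKIP. Because the control vector was empty, RKIP depletion and the presence of a hairpin cannot be told apart. The labels name neither the hairpin's sequence nor any clone. The arrays of a group are labelled biological replicates, but nothing says whether they came from separate transductions, so p-values measure the spread between these samples, which may be partly technical.

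Myeloid cells sense microbes and damage through receptors at the membrane and relay the signal through adaptor proteins. TLR4 is the receptor for bacterial lipopolysaccharide, which it binds together with its co-receptor MD-2, and it signals through MYD88 and TICAM1 to NF-kB and interferon genes. TYROBP, also called DAP12, is a small adaptor with an immunoreceptor tyrosine-based activation motif (ITAM) that lends a cytoplasmic signal to receptors such as TREM and SIRP-beta proteins by recruiting the kinase SYK. ANXA1 encodes annexin A1, a calcium-dependent phospholipid-binding protein that dampens inflammation through formyl peptide receptors. MNDA encodes a nuclear DNA-binding protein of the PYHIN family that marks myelomonocytic cells. CHI3L1 encodes YKL-40, a secreted chitinase-like lectin without chitinase activity that maturing macrophages and neutrophils release.

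All values are log2 array values as deposited, and a mean below 4.08, the median of all rows of the table, is called dim, because background compresses differences there. The targeted gene, PEBP1, was lower in RKIP shRNA arrays, at 8.22 ± 0.038, than in control arrays, at 9.68 ± 0.14 (SD, n = 3 each), with a log2 difference of -1.46 (SE 0.088, limma adjusted p = 0.000228). In the limma fit over all genes 20.2% passed at a Benjamini-Hochberg adjusted p under 0.05, of which 1495 genes (10.0%) rose and 1515 (10.2%) fell. The count of genes that rose was 963 without RKIP shRNA replicate 1, 969 without control replicate 2 and 983 without control replicate 3. The median log2 difference of all genes was 0.02.

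The lipopolysaccharide receptor gene TLR4 read 7.12, 7.06 and 7.35 in RKIP shRNA arrays, against 5.88, 5.94 and 5.97 in control arrays. The groups did not overlap, and RKIP shRNA replicate 3 was the highest. Its mean was 7.18 ± 0.15 in RKIP shRNA cells and 5.93 ± 0.045 in control cells (SD, n = 3 each), a log2 difference of 1.25 ± 0.091 (SE) or 2.37-fold. In bulk RNA, a larger share of cells that express a gene and more RNA per cell cannot be told apart.

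TYROBP read 8.88, 8.74 and 8.68 in RKIP shRNA arrays, against 6.06, 6.63 and 6.48 in control arrays. The groups did not overlap, and control replicate 1 was the lowest. The log2 difference was 2.38 ± 0.15 (SE), or 5.19-fold, with means of 8.77 ± 0.10 in RKIP shRNA cells and 6.39 ± 0.30 in control cells (SD, n = 3 each). Leaving out control replicate 1 gave a log2 difference of 2.21 for this gene, and leaving out control replicate 2 gave 2.50.

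ANXA1, the anti-inflammatory annexin, varied least between arrays of the RKIP shRNA group among the 5 genes. It read 9.39, 9.37 and 9.42 in RKIP shRNA arrays, against 7.38, 7.24 and 7.20 in control arrays, so the groups did not overlap. The means were 9.39 ± 0.023 in RKIP shRNA cells and 7.27 ± 0.093 in control cells (SD, n = 3 each), and the log2 difference was 2.12 ± 0.073 (SE), or 4.34-fold.

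MNDA, the nuclear antigen gene, had the largest log2 difference of the 5 and ranked 4 by size among all genes that were higher in RKIP shRNA cells. It read 7.27, 7.38 and 7.26 in RKIP shRNA arrays, against 4.82, 4.37 and 4.53 in control arrays. All control arrays lay close to the median of all rows. The mean was 7.31 ± 0.068 in RKIP shRNA cells and 4.57 ± 0.23 in control cells (SD, n = 3 each), which gives a log2 difference of 2.74 ± 0.12 (SE) or 6.66-fold.

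CHI3L1, the secreted lectin gene, read 6.22, 6.42 and 6.08 in RKIP shRNA arrays, against 4.62, 4.56 and 4.52 in control arrays. Again the groups did not overlap, and the control arrays were close to the median of all rows. Means of 6.24 ± 0.17 in RKIP shRNA cells and 4.57 ± 0.049 in control cells (SD, n = 3 each) gave a log2 difference of 1.67 ± 0.099 (SE), or 3.19-fold. For MNDA and CHI3L1 the control level exceeded the median of all rows by only 0.49 on the log2 scale, so their folds may be compressed.

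**Figure D1:**
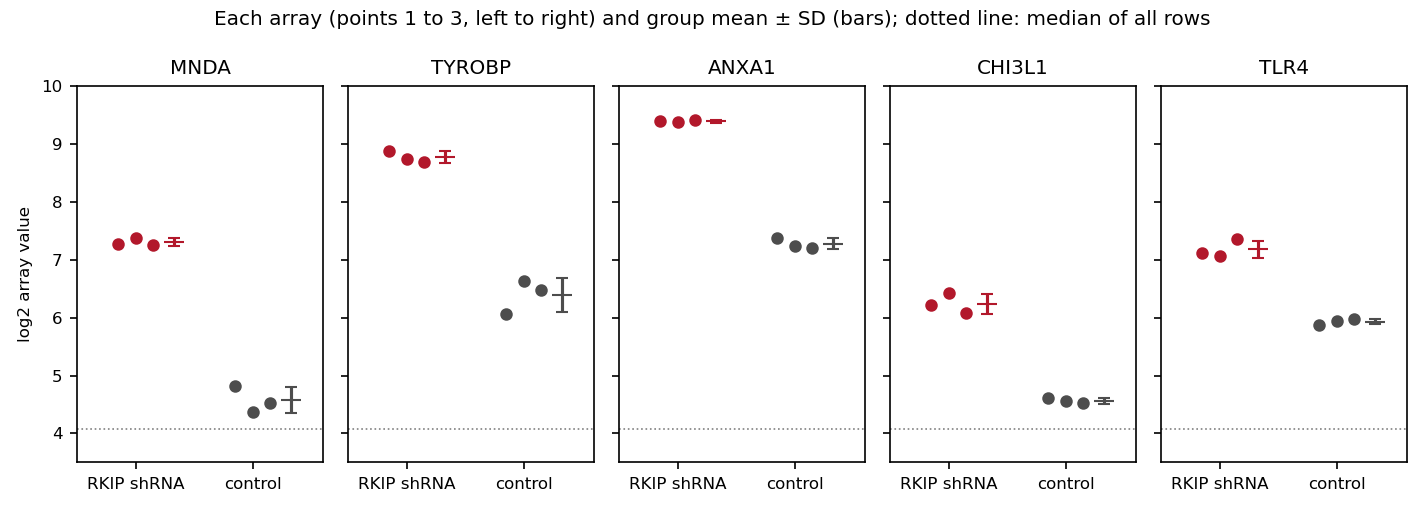
The log2 array value of each gene is plotted for every array, with RKIP shRNA arrays left of control arrays, bars for the group mean and SD (n = 3 each) and a dotted line at the median of all rows, 4.08. The groups do not overlap for any of the 5 genes, and the control points of MNDA and CHI3L1 lie just above the dotted line.

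RKIP shRNA arrays lay above all control arrays for each of the 5 genes, as they did for 19.8% of all genes, with the opposite order in 18.1%. Since the genes were chosen on this contrast, nothing follows from that count. The smallest gap between the lowest RKIP shRNA array and the highest control array was 1.09 on the log2 scale, for TLR4, and the largest was 2.44, for MNDA. Ordered by log2 difference the genes run MNDA, TYROBP, ANXA1, CHI3L1 and TLR4. The difference of MNDA exceeded that of TYROBP by 0.36 with a combined SE of 0.19, and that of TYROBP exceeded that of ANXA1 by 0.26 with a combined SE of 0.17. ANXA1 exceeded CHI3L1 by 0.45 (combined SE 0.12) and CHI3L1 exceeded TLR4 by 0.43 (combined SE 0.13). These are descriptions of values that chose the genes, and no test was made of the order. No array was highest or lowest throughout: in the RKIP shRNA group replicate 3 gave the highest TLR4 and ANXA1 values but the lowest MNDA, TYROBP and CHI3L1 values. Each of the 5 genes had 1 probe under its name, so no other probe could be set beside it.

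The sequences before the annotated start sites are shown because the 5 genes were higher together. The 250 bases upstream of each RefSeq start in GRCh38.p14 read as follows, 5′ to 3′ on the gene's strand. Capitals mark matches of GAGGAA, the core bound by PU.1, the myeloid Ets factor, or of its reverse complement.
MNDA (chr1:158831101-158831350, plus strand): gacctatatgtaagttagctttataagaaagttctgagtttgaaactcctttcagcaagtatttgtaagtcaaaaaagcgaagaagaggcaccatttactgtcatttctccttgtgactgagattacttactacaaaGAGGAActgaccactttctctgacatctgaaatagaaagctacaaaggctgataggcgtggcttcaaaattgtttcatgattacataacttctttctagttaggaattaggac
TYROBP (chr19:35908296-35908545, minus strand): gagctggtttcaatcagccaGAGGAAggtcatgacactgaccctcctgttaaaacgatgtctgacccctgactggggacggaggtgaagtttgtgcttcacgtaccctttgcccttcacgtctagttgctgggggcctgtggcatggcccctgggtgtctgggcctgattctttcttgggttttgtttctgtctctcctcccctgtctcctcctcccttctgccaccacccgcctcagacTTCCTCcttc
ANXA1 (chr9:73151615-73151864, plus strand): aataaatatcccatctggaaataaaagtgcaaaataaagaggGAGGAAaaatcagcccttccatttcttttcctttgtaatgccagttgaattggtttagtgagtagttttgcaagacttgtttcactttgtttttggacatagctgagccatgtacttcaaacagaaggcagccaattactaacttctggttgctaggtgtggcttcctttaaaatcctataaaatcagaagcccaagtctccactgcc
CHI3L1 (chr1:203186705-203186954, minus strand): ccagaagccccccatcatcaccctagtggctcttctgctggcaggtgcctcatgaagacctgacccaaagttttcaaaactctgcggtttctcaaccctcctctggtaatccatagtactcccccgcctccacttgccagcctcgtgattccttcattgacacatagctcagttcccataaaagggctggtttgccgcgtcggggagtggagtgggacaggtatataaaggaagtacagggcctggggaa
TLR4 (chr9:117704153-117704402, plus strand): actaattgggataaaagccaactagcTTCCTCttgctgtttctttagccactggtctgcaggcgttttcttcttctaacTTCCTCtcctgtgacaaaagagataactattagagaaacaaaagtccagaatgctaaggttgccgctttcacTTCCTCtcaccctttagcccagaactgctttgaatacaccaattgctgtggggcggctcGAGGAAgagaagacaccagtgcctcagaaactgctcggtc
GAGGAA on either strand was present in 4 of the 5 windows and in 23.4% of 27305 RefSeq windows of the same length. TLR4 held 4 matches, beginning 224, 171, 99 and 40 bases before the start, and TYROBP held 2, at 230 and 10 bases. MNDA held 1 at 113 bases and ANXA1 held 1 at 208 bases, while these letters are not in the CHI3L1 window. The C/EBP motif TTNCNNAA on either strand was found in the MNDA, ANXA1 and CHI3L1 windows and in 33.6% of all windows. The interferon response motif, GAAA followed after any 2 bases by GAAA, on either strand was found in the MNDA window alone of the 5 and in 3.07% of all windows. An NF-kB-type motif, GGG followed after any 5 bases by CC, on either strand, was found in the TYROBP window and in 53.7% of all windows, and the GC box GGGCGG on either strand in the TLR4 window and in 42.3%. TATAAA on the gene's strand began 31 bases before the start of ANXA1 and 27 bases before that of CHI3L1, and 7.17% of all windows held it. The letters TGANTCA (AP-1, in 6.60% of all windows) and TTCNNNGAA (the STAT-type gamma-activated site, in 6.78%), searched on either strand, were in 0 of the 5 windows. Matches of different motifs overlapped in 0 places. The G and C content of the windows was 36.0% for MNDA, 38.4% for ANXA1, 46.4% for TLR4, 54.0% for CHI3L1 and 56.4% for TYROBP, each below the median of 58.0% over all windows. A match of such short letters is a description of the sequence and not a shown binding site.

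Of the 11 other annexin genes 2 fell and 9 did not pass, with a median log2 difference of 0.03 and 18.2% passing, against 20.2% of genes passing and a median of 0.02 over all genes. ANXA3, an annexin of neutrophils, fell by 1.26 (SE 0.11, limma adjusted p = 0.000688), to 6.07 ± 0.21 in RKIP shRNA cells, against 7.34 ± 0.045 in control cells (SD, n = 3 each). ANXA4, an annexin of secretory cells, fell by 0.66 (SE 0.076, adjusted p = 0.00178).

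Of the 9 other Toll-like receptor genes, 1 rose, 1 fell and 7 did not pass, with a median log2 difference of -0.09 and 22.2% passing. TLR9, the endosomal sensor of unmethylated DNA, rose by 0.54 (SE 0.071, limma adjusted p = 0.00299). TLR3, the endosomal sensor of double-stranded RNA, fell by 0.77 (SE 0.089, adjusted p = 0.00178). TLR2, the receptor for bacterial lipopeptides, stood at 6.50 ± 0.16 in RKIP shRNA cells and 6.59 ± 0.13 in control cells (SD, n = 3 each) and did not pass.

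Among the other PYHIN genes, AIM2 had a value under its name. AIM2, the cytosolic DNA sensor of an inflammasome, rose by 0.47 (SE 0.11, limma adjusted p = 0.028) but was dim in both groups, at 3.33 ± 0.21 in RKIP shRNA and 2.86 ± 0.066 in control cells (SD, n = 3 each). It kept its call on leaving out an array only without RKIP shRNA replicate 2, and its highest adjusted p was 0.088. IFI16 and PYHIN1 were not analysed here.

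Of the 3 other chitinase-like genes measured, 1 rose and 2 did not pass. CHID1, which encodes a lysosomal chitinase-domain protein, rose by 0.89 (SE 0.069, limma adjusted p = 0.000484), to 8.95 ± 0.069 in RKIP shRNA cells, against 8.05 ± 0.034 in control cells (SD, n = 3 each). CHIT1, the active macrophage chitinase, and CHI3L2, another chitinase-like gene without enzyme activity, were dim in both groups, with log2 differences of -0.07 and 0.005.

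**Figure D2:**
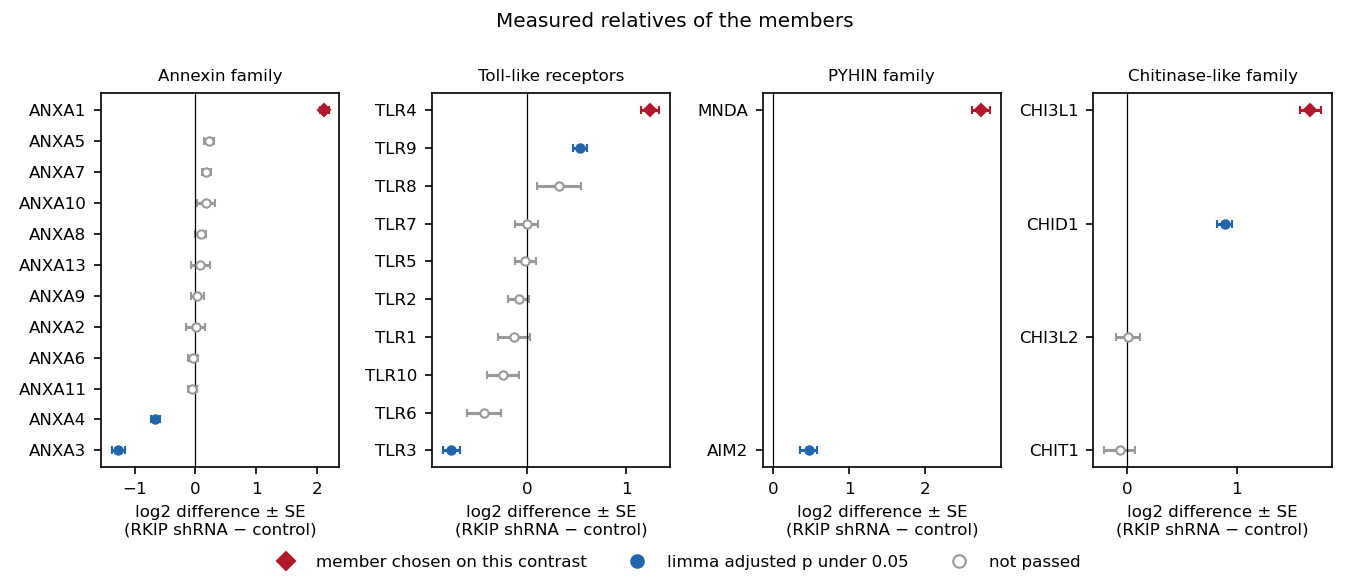
The log2 difference (RKIP shRNA minus control, x axis) with its SE is drawn for each measured gene of the 4 families, with diamonds for the genes chosen on this contrast and filled circles for relatives that passed limma. ANXA3 and ANXA4 lie left of 0, whereas CHID1 and TLR9 lie right of it.

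Of 9 measured receptors known to couple to TYROBP, 2 rose and 7 did not pass, with a median log2 difference of 0.22. That is 22.2% passing, close to the 20.2% of all genes. SIRPB1, an activating SIRP-beta receptor, rose by 1.11 (SE 0.066, limma adjusted p = 0.000228), to 8.22 ± 0.053 in RKIP shRNA cells, against 7.11 ± 0.034 in control cells (SD, n = 3 each). CD300LB, an activating CD300 receptor, rose by 1.07 (SE 0.16, adjusted p = 0.00442), to 4.48 ± 0.18 in RKIP shRNA cells, against a dim 3.42 ± 0.29 in control cells. TREM1 and TREM2, the best-known partners of TYROBP, did not pass. TREM1 stood at 4.09 ± 0.27 in RKIP shRNA and 3.82 ± 0.081 in control cells, and TREM2 was dim at 2.85 ± 0.39 in RKIP shRNA and 2.91 ± 0.215 in control cells (SD, n = 3 each). CSF1R, the macrophage colony-stimulating factor receptor, had a log2 difference of 0.22 and did not pass, but passed without RKIP shRNA replicate 2 (adjusted p = 0.0389).

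HCST, which encodes the sister adaptor DAP10 and is the gene next to TYROBP, read 8.99, 8.89 and 8.92 in RKIP shRNA arrays, against 7.58, 8.78 and 8.79 in control arrays. Control replicate 1 was the low array, as it was for TYROBP. The log2 difference of HCST was 0.55 (SE 0.31, limma adjusted p = 0.28), and 0.15 without control replicate 1. CD247, the zeta chain of the T cell receptor, had a log2 difference of 0.23 and did not pass. FCER1G was not analysed here.

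Of 13 measured kinases, adaptors and phosphatase-linked genes downstream of the activation motif, 3 rose, 4 fell and 6 did not pass, with a median log2 difference of 0.08 and 53.8% passing. All 13 were brighter than the median of all rows. Of all such genes 29.2% passed, against 20.2% of all genes. The tyrosine kinase gene SYK rose by 0.59 (SE 0.076), LYN, the SRC-family kinase that phosphorylates the motif, by 0.48 (SE 0.068), and the linker gene GRB2 by 0.46 (SE 0.061), with limma adjusted p-values of 0.0028, 0.00365 and 0.00291. DOK3, an adaptor that restrains this pathway, fell by 0.79 (SE 0.12, adjusted p = 0.00516). LCP2, the scaffold SLP-76, fell by 0.44 (SE 0.068, adjusted p = 0.00477). The kinase gene BTK fell by 0.28 (SE 0.064, adjusted p = 0.0226), a call it kept on leaving out an array only without control replicate 3 (highest adjusted p = 0.083).

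Of 9 measured receptors with inhibitory motifs, which oppose this signal, 1 rose, 1 fell and 7 did not pass, with a median log2 difference of 0.06 and 22.2% passing. PECAM1, an adhesion molecule, rose by 0.62 (SE 0.12, limma adjusted p = 0.0135) at dim levels of 3.91 ± 0.23 in RKIP shRNA and 3.29 ± 0.086 in control cells (SD, n = 3 each), and lost its call without control replicate 2 (adjusted p = 0.052). The collagen receptor gene LAIR1 fell by 0.33 (SE 0.074, adjusted p = 0.0216) and kept its call on leaving out an array only without RKIP shRNA replicate 2 or control replicate 1 (highest adjusted p = 0.075).

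**Figure D3:**
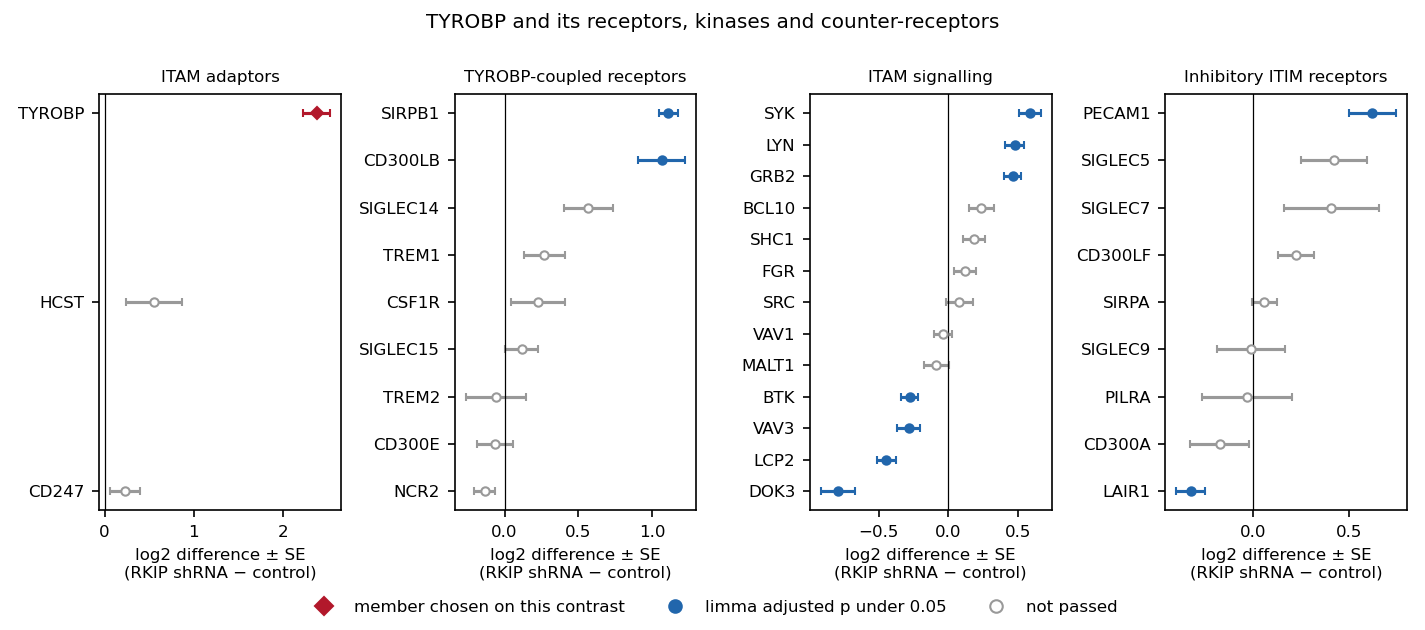
The log2 difference (RKIP shRNA minus control, x axis) with its SE is drawn for TYROBP (diamond) and for adaptors, coupled receptors, signalling genes and inhibitory receptors, with filled circles where limma passed. SIRPB1 and CD300LB stand apart from the other coupled receptors, at 1.11 and 1.07, and the signalling genes lie on both sides of 0.

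Of 9 measured genes for the TLR4 complex, related receptor complexes and chaperones of Toll-like receptors, 1 rose, 1 fell and 7 did not pass, with a median log2 difference of 0.09. The 22.2% that passed are close to the 20.2% of all genes. LY96, which encodes MD-2, was dim in both groups and fell by 0.55 (SE 0.087, limma adjusted p = 0.00537), to 2.34 ± 0.078 in RKIP shRNA cells, against 2.89 ± 0.12 in control cells (SD, n = 3 each). CD14, the co-receptor that delivers lipopolysaccharide, was dim too, at 2.71 ± 0.27 in RKIP shRNA and 2.77 ± 0.021 in control cells (SD, n = 3 each), and did not pass. UNC93B1, a chaperone of endosomal Toll-like receptors, rose by 0.25 (SE 0.069, adjusted p = 0.0426) and kept its call on leaving out an array only without RKIP shRNA replicate 3 (highest adjusted p = 0.13).

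Of 14 measured adaptors and kinases of the pathway 4 rose, 2 fell and 8 did not pass, with a median log2 difference of 0.12 and 42.9% passing. All 14 were brighter than the median of all rows, and 29.2% of all such genes passed. CHUK, the IKK alpha kinase, rose by 0.43 (SE 0.065), the receptor-proximal kinase gene IRAK1 by 0.42 (SE 0.066) and MAP3K8, the kinase TPL2 that links Toll-like receptors to MEK, by 0.61 (SE 0.115), with limma adjusted p-values of 0.00454, 0.00549 and 0.0106. TBK1, the kinase that activates IRF3, rose by 0.39 (SE 0.096, adjusted p = 0.0279), but lost its call without RKIP shRNA replicate 1 or 3 or control replicate 2 or 3 (highest adjusted p = 0.090). PELI1, a ubiquitin ligase acting on IRAK proteins, fell by 0.51 (SE 0.068, adjusted p = 0.00308). TAB2, an adaptor of the kinase TAK1, fell by 0.24 (SE 0.064, adjusted p = 0.0397) and missed the threshold whichever array was left out (highest adjusted p = 0.11). The main adaptor gene MYD88 had a log2 difference of 0.15 (SE 0.072) and did not pass.

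Among 15 measured negative regulators 1 rose, 4 fell and 10 did not pass, with a median log2 difference of -0.14 and 33.3% passing. IL1RL1, the interleukin 33 receptor ST2, rose by 1.65 (SE 0.11, limma adjusted p = 0.000279), to 5.50 ± 0.092 in RKIP shRNA cells, against a dim 3.84 ± 0.18 in control cells (SD, n = 3 each). DUSP1, the phosphatase that switches off p38 and JNK, fell by 0.84 (SE 0.13, adjusted p = 0.00451). The deubiquitinase gene CYLD fell by 0.27 (adjusted p = 0.0265) and SIGIRR, a receptor that restrains Toll-like signalling, by 0.29 (adjusted p = 0.037), and both missed the threshold whichever array was left out, with highest adjusted p-values of 0.091 and 0.11. ATF3, a transcriptional repressor, fell by 0.29 (adjusted p = 0.0277) and kept its call on leaving out an array only without control replicate 1 (highest adjusted p = 0.095).

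Of 12 measured transcription factors of the pathway 1 rose, 1 fell and 10 did not pass, with a median log2 difference of -0.02 and 16.7% passing. NFKB1, the p105/p50 subunit gene of NF-kB, rose by 0.39 (SE 0.087, limma adjusted p = 0.0206), a call lost without RKIP shRNA replicate 1 or 3 or control replicate 1 or 3 (highest adjusted p = 0.068). NFKB2, the p100/p52 subunit gene, fell by 0.43 (SE 0.083, adjusted p = 0.0119).

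Genes that lipopolysaccharide is known to induce were measured without such a stimulus named in the labels. Of 14 with a value 9 rose and 5 did not pass, with a median log2 difference of 0.60, against 10.0% of all genes rising and a median of 0.02. The list was drawn up with earlier results of these data known, so its direction is not independent evidence. CXCL8, the neutrophil chemokine interleukin 8, rose by 3.05 (SE 0.19), CXCL10, an interferon-induced chemokine, by 2.40 (SE 0.20) and TNF by 1.29 (SE 0.11), with limma adjusted p-values of 0.000257, 0.000635 and 0.000623. IFIT1 and IFIT2, interferon-induced antiviral genes, rose by 1.57 and 1.44, and the chemokine gene CCL5 by 0.64 (adjusted p = 0.000688, 0.0011 and 0.00155). CXCL10, IFIT1 and IFIT2 were dim in control cells.

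**Figure D4:**
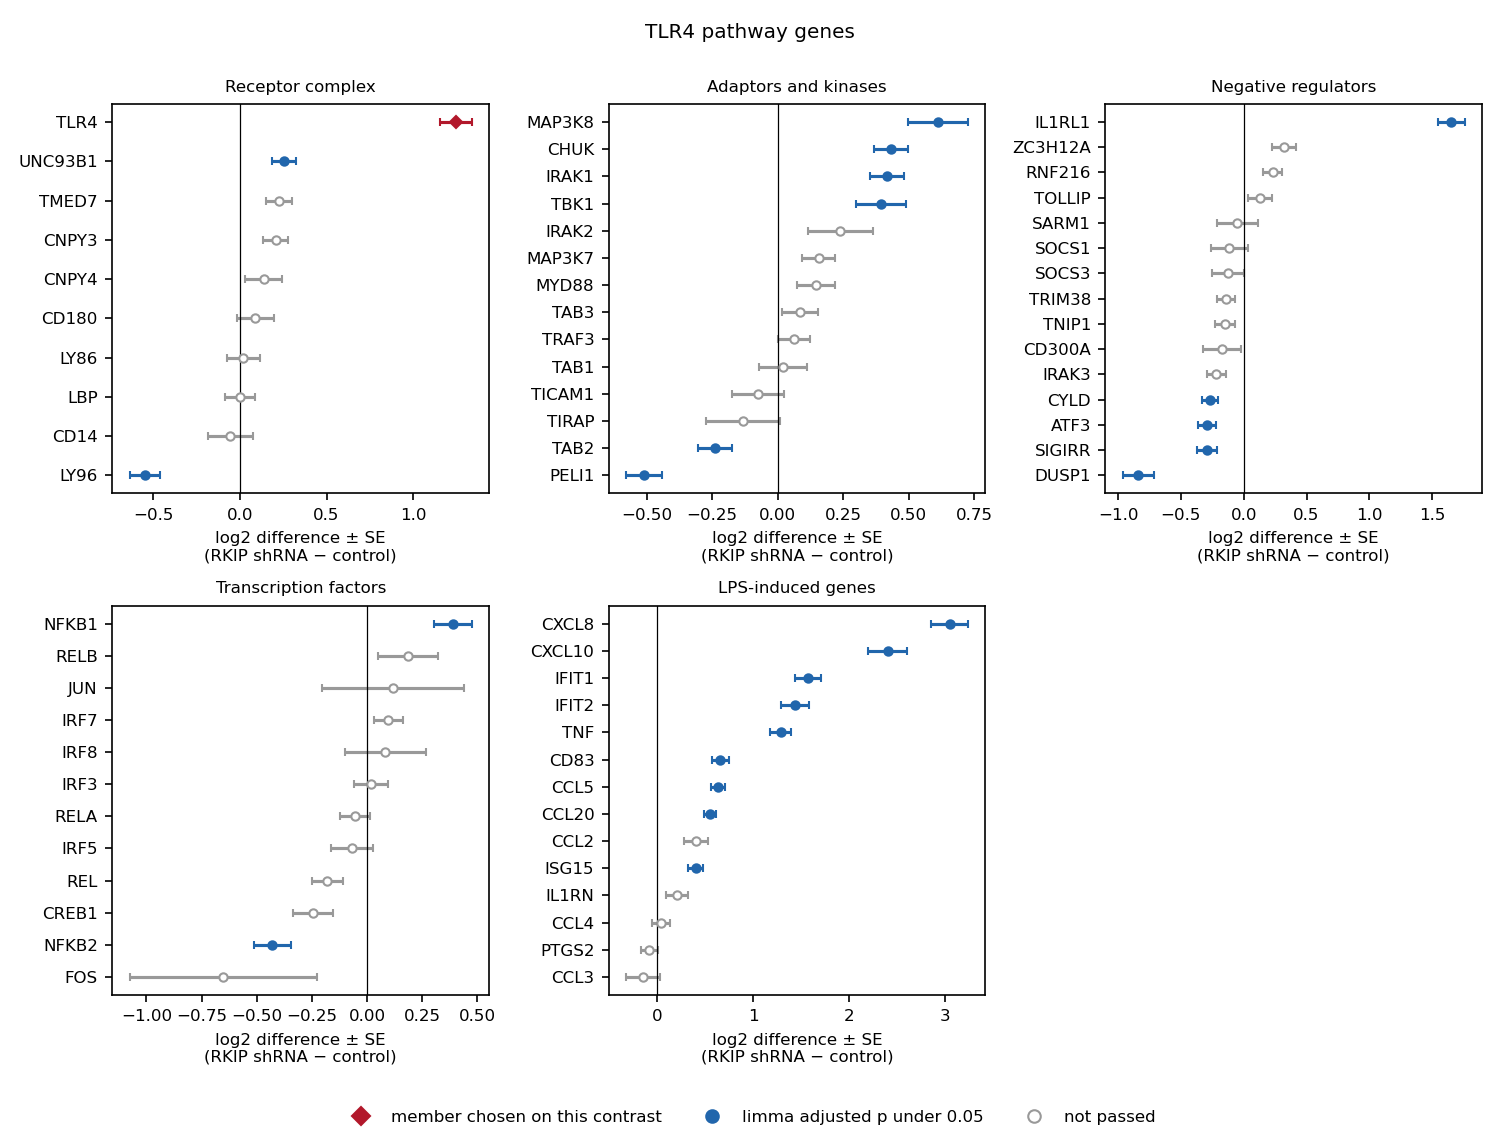
The log2 difference (RKIP shRNA minus control, x axis, scaled separately in each panel) with its SE is drawn for TLR4 (diamond) and its pathway genes by role, with filled circles where limma passed. LY96 is the gene farthest below 0 in its panel, and the lipopolysaccharide-induced genes reach 3.05 with CXCL8.

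Of 9 measured annexin A1 partners, receptors and glucocorticoid-linked genes 2 rose, 1 fell and 6 did not pass, with a median log2 difference of 0.125 and 33.3% passing, against 20.2% of all genes. ALOX5AP, the activating protein of leukotriene synthesis, rose by 0.50 (SE 0.072, limma adjusted p = 0.00389). S100A11, a calcium-binding partner of annexin A1, rose by 0.34 (SE 0.074, adjusted p = 0.0199), and lost its call without RKIP shRNA replicate 2 or 3 or control replicate 3 (highest adjusted p = 0.069). The gene that fell was DUSP1, a glucocorticoid-induced phosphatase given above. The formyl peptide receptor genes FPR1 and FPR2 were dim in both groups, and did not pass: FPR1 stood at 3.34 ± 0.31 in RKIP shRNA and 3.44 ± 0.074 in control cells, and FPR2 at 2.38 ± 0.36 in RKIP shRNA and 2.25 ± 0.14 in control cells (SD, n = 3 each).

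Of 5 measured receptors and binding partners of CHI3L1, 2 fell and 3 did not pass, with a median log2 difference of -0.14. That is 40% passing. All 5 were brighter than the median of all rows, and 29.2% of all such genes passed. CD44, the hyaluronan receptor, fell by 0.45 (SE 0.067, limma adjusted p = 0.00442). AGER, the receptor for advanced glycation end products, fell by 0.42 (SE 0.071, adjusted p = 0.00703), and of 6 other AGER probes 5 gave log2 differences of -0.44 to -0.42 and 1 gave -0.08. Of 4 measured inflammasome genes 1 rose, 1 fell and 2 did not pass. PYCARD, the adaptor ASC that AIM2 engages, rose by 0.99 (SE 0.076, adjusted p = 0.000491), and IL18, a cytokine matured by inflammasomes, fell by 1.39 (SE 0.12, adjusted p = 0.0006).

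Of 9 measured myeloid transcription factors 1 rose and 8 did not pass, with a median log2 difference of 0.09 and 11.1% passing, against 20.2% of all genes. The gene that rose was SPI1, at 9.27 ± 0.067 in RKIP shRNA cells and 8.78 ± 0.085 in control cells (SD, n = 3 each), a log2 difference of 0.49 (SE 0.076, limma adjusted p = 0.00527). Over all these lists together, without the 5 genes, 145 genes were measured, of which 29 rose and 19 fell. That is 33.1% passing, against 20.2% of all genes. Among genes brighter than the median of all rows, 38.9% of 113 listed genes passed, against 29.2% of all such genes. The lists were drawn up with earlier results of these data known, so these shares are not independent evidence. The number of listed genes that fell was 12 without control replicate 2 and lay between 12 and 14 over the 6 fits that left out 1 array.

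The genes whose profile over the 6 arrays, centred on each gene's own mean, was closest to that of each of the 5 were found by the root mean square difference on the log2 scale, and they are a description of the same contrast. TNF was closest to TLR4 with a root mean square difference of 0.067, followed by DOCK10, a guanine nucleotide exchange factor of leukocytes, at 0.078, and FYB1, an adaptor of immune cells, at 0.094. HGF, the hepatocyte growth factor gene, was closest to ANXA1 at 0.065. CXCL10 was closest to TYROBP at 0.13. PRTN3 and LYZ, the genes for proteinase 3 and lysozyme, were closest to MNDA at 0.16 and 0.17, and they stood among the nearest 3 of TYROBP and of ANXA1 as well. For LYZ this holds for the probe used, with a log2 difference of 2.55. The other LYZ probe gave 3.43, and its profile was not compared. LST1, a leukocyte transcript, was closest to CHI3L1 at 0.11, ahead of the metallothionein gene MT1X at 0.12 and IFIT1 at 0.13. The place of LST1 rests on the probe used, with a log2 difference of 1.65. Its other 2 probes gave 1.93 and 1.89, against 1.67 for CHI3L1. HGF read 9.68 ± 0.11 in RKIP shRNA cells and 7.54 ± 0.067 in control cells, and LST1 read 7.44 ± 0.16 in RKIP shRNA cells and 5.79 ± 0.17 in control cells (SD, n = 3 each).

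The chromosomal neighbours of the 5 genes, which played no part in choosing them, were compared next, taking the nearest 3 measured genes on each side in the RefSeq gene table of GRCh38.p14. Of these 30 genes 2 rose, 2 fell and 26 did not pass, where 10.0% of all genes rose and 10.2% fell. Many neighbours were dim in both groups, such as TMC1, GDA and RORB near ANXA1, where differences may be missed. On the side of MNDA that holds AIM2 and DUSP23, a phosphatase gene, these 2 rose by 0.47 and 0.59 (limma adjusted p = 0.028 and 0.00476). On its other side the antigen-presenting genes CD1E, CD1C and CD1B had log2 differences of 0.16, 0.25 and 0.45 and did not pass. All 3 were dim in both groups, and CD1B passed without RKIP shRNA replicate 2 (log2 difference 0.82, adjusted p = 0.0072). Genes that directly adjoin CHI3L1 and TYROBP in this table were measured: MYBPH beside CHI3L1 had a log2 difference of 0.20, and HCST and LRFN3 on the 2 sides of TYROBP had 0.55 and -0.10, all without passing. OSTF1 near ANXA1 fell by 0.31 and the microRNA gene MIR147A near TLR4 by 0.69 (adjusted p = 0.0323 and 0.0474). OSTF1 kept its call on leaving out an array only without RKIP shRNA replicate 3 and MIR147A only without RKIP shRNA replicate 2 (highest adjusted p = 0.10 and 0.13). Many unmeasured genes lie between some neighbours. From MNDA, 5 were passed over before AIM2, 30 before DUSP23 and 26 before CD1E, and from ANXA1 15 before RORB.

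**Figure D5:**
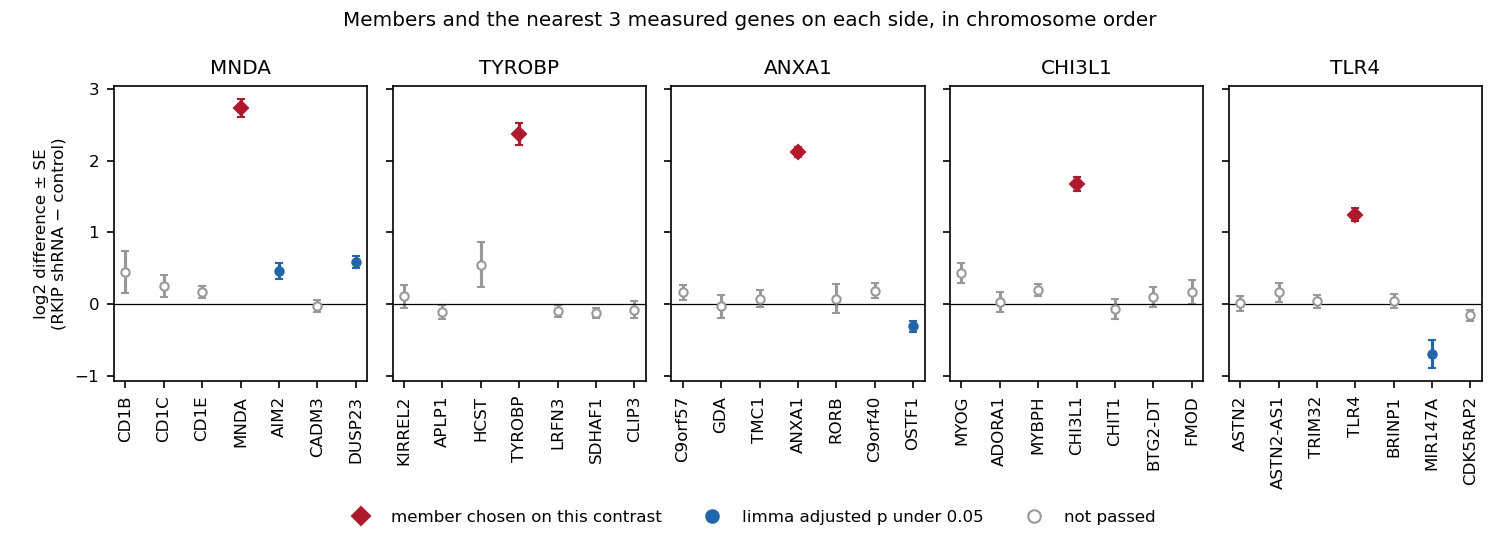
The log2 difference (RKIP shRNA minus control, y axis) with its SE is drawn for each of the 5 genes (diamond) and the nearest 3 measured genes on each side in chromosome order (x axis, not to scale), with filled circles where limma passed. Each neighbour lies below its gene, and the highest is DUSP23 at 0.59.

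Markers of cell types were set beside these values. Over all genes 10.0% rose and 10.2% fell. Among 10 measured monocyte markers 2 rose and 8 missed the threshold, with a median log2 difference of 0.17: LYZ rose by 2.55 and the lysosomal antigen gene CD68 by 0.37 (limma adjusted p = 1.62e-05 and 0.00761). Another LYZ probe gave a log2 difference of 3.43. CD14, CD36, S100A8, S100A12 and VCAN, which mark monocytes, were dim in both groups. Without RKIP shRNA replicate 2, S100A8 and CSF1R passed too (log2 differences 0.67 and 0.44, adjusted p = 0.0465 and 0.0389), which made 4 monocyte markers that rose. The summed log2 level of this list lay between 46.0 and 47.6 in RKIP shRNA arrays and between 42.5 and 43.0 in control arrays. The sums of the group means were 46.58 and 42.83, and LYZ alone, up by 2.55, made most of that difference. Among 8 measured granulocyte and eosinophil markers 1 fell, 6 rose and 1 missed the threshold, with summed log2 levels of 73.5 to 74.2 in RKIP shRNA arrays and 59.5 to 60.7 in control arrays. CLC, the Charcot-Leyden crystal protein gene, rose by 5.43, the eosinophil peroxidase gene EPX by 4.94 and PRTN3 by 2.51 (adjusted p = 4.52e-07, 1.77e-06 and 2.1e-05), while the neutrophil marker CEACAM8 was dim in both groups. MPO, myeloperoxidase, rose by 0.26 (adjusted p = 0.0407) and missed the threshold whichever array was left out (highest adjusted p = 0.11). The granule protease genes CTSG and AZU1 rose by 0.51 and 0.60 (adjusted p = 0.00495 and 0.0316), and CSF3R, the granulocyte colony-stimulating factor receptor, fell by 0.49 (adjusted p = 0.0202). AZU1 kept its call on leaving out an array only without control replicate 1, and CSF3R lost it without RKIP shRNA replicate 1 or control replicate 1 or 2 (highest adjusted p = 0.10 and 0.071). Of this list CLC, EPX and PRTN3 rose most, while CSF3R fell and CEACAM8 did not pass. The part of these markers in the values of the 5 genes was not tested.

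Markers of other lineages were measured as well. Of 4 natural killer cell markers, NKG7, a granule membrane protein gene, rose by 0.93 (limma adjusted p = 0.000579), and GNLY, NCR1 and PRF1 had log2 differences between -0.02 and 0.08 and did not pass. The summed log2 level of this list was 20.4 to 21.5 in RKIP shRNA arrays and 19.3 to 20.2 in control arrays. The sums of the group means were 20.85 and 19.89, and NKG7 alone, up by 0.93, made most of that difference. The part of this list in the values above was not tested. Of 4 T cell markers 1 rose (CD5 by 0.39, adjusted p = 0.0486, a call kept on leaving out an array only without control replicate 3) and of 3 B cell markers 1 fell (VPREB3 by 0.38, adjusted p = 0.035, kept only without control replicate 2). Of 5 epithelial markers 1 fell, KRT18 by 0.29 (adjusted p = 0.022, kept on leaving out an array only without RKIP shRNA replicate 2 or 3), with another KRT18 probe at 0.02. Of 3 fibroblast markers 1 rose, FN1 by 0.86 (adjusted p = 0.00112), with a dim level in control cells. The erythroid genes KLF1 and EPOR had log2 differences of 0.24 and 0.02 and did not pass.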

How the data were processed

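The deposited table held log2 expression values of 53617 rows on 6 Affymetrix Human Gene ST arrays; for the authors' summarisation and normalization, no method is given in the sources used here, and the log2 scale was read from the values (0.72 to 14.0) of the deposited table. Rows were named through the array annotation, which gave 1 symbol to 16098 rows and left 37519 rows without one; each of those symbols was found in RefSeq (GRCh38.p14) through its gene number. The probe with the highest mean over the 6 arrays was kept per gene, which mattered for 779 genes. Coordinates are given only for the RefSeq windows of GRCh38.p14, since no build of the array annotation was given.

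The difference RKIP shRNA minus control was fitted over all 14884 genes with lmFit and eBayes of limma 3.58.1 (R 4.3.3), 3 arrays against 3, without a filter on brightness, and p-values were adjusted by Benjamini-Hochberg over all genes. Figures were drawn with matplotlib 3.10.9. The 5 genes and the gene lists were chosen with earlier results of these data known. Named genes were, besides the 5, PEBP1, a few fixed partners (LY96, CD14, MYD88, HCST, TREM1, TREM2, SYK, SPI1, FPR1, FPR2, AIM2, CHI3L2, CHIT1, TLR2, CD44), the called genes of each list (at most 6, by p; with none called, the 2 largest differences), the nearest 3 profiles, the nearest 3 measured neighbours on each side, and cell type markers; CSF1R was named after its values were seen, because leaving out 1 array changed its call. Alternatives were array weights, quantile normalization, a prior that is trended and robust, centring on the median, a replicate block, leaving out dim probes, the mean or the dimmest probe of a gene, all rows, and leaving out each array. The labels give no array date or batch, and the number of arrays limits the precision. No 2 arrays were duplicates: pairs shared 58 to 144 identical values.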

Additional observations from a re-analysis of the deposited data

Results flagged for a closer look

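Unnamed rows were looked at because they hold signal outside the main measurement. Of 37519 such rows, 57 rose in RKIP shRNA arrays by at least the 1.25 of TLR4 on the log2 scale (limma over all rows, adjusted p under 0.05), and the largest difference was 5.46. For scale, TLR4 itself ranked 33 by log2 difference among the 14884 named genes, called or not. Some genes of the lists without a named probe may be among the 57 rows, which was not tested.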

How the results depend on the processing

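Over the 15 alternatives the log2 differences ranged from 2.63 to 2.86 for MNDA, 2.21 to 2.50 for TYROBP and 2.08 to 2.17 for ANXA1. Those of CHI3L1 ranged from 1.58 to 1.75 and those of TLR4 from 1.16 to 1.31. Leaving out 1 array gave both ends of each range. Each of the 5 genes had 1 probe, so the choice of probes or rows could not change its difference. Nor could the trended and robust prior or the replicate block. PEBP1 kept its call under each alternative, at -1.54 to -1.41 on leaving out 1 array. Leaving out 1 array gave 963 to 1212 genes that rose and 1018 to 1270 that fell, and 25 to 28 listed genes that rose and 12 to 14 that fell. With all rows tested as features 2439 rows fell, and 12 listed genes fell, by limma; more rows are tested there. The labels do not say whether equal replicate numbers pair the arrays. Same-numbered arrays had correlations of deviations of 0.02, 0.00 and -0.02. These show no shared deviation but cannot settle whether the arrays were made in pairs. With the replicate number as a block, 1033 genes rose and 1109 fell (limma), with 27 and 14 listed genes. A block cannot change a difference of group means in this balanced layout, so those of the 5 genes were the same by construction. The dimmest KRT18 probe gave 0.024 where the kept one fell. Besides that case, in which the call was lost too, the other genes named lost calls in 43 cases outside the fits that left out 1 array. Within those fits they lost calls in 92 cases, and they gained calls in 3 cases outside and 3 within. Dim values, such as those of CD14, LY96, FPR1 and TREM2, lie near background on these arrays, so differences there may be missed.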
